A study of Oryza sativa Japonica Group with 6 samples.

Results

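Alternative oxidase is the second terminal oxidase of plant mitochondria. It sits in the inner membrane and passes electrons from ubiquinol straight to oxygen, so that they bypass the proton-pumping complexes III and IV of the cytochrome pathway and less of their energy is kept as ATP. The enzyme is encoded by a small family of nuclear genes, and the AOX1 members are known as stress-responsive genes whose transcripts rise when the cytochrome pathway is blocked or reactive oxygen increases. Uncoupling protein, which lets protons back through the same membrane, is the other textbook route by which plant mitochondria lower the yield of ATP.

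The alternative oxidases of rice were followed in wild type synergids and antipodals, the accessory cells at the micropylar and chalazal ends of the embryo sac. The cells had been dissected without enzymes from florets at anthesis of greenhouse-grown Oryza sativa ssp. japonica, cultivar Katy, and were measured on Affymetrix arrays, 3 of each cell type. Titles number the arrays as biological replicates but name no plants or days, so the spread between them may be partly technical. How many cells went into an array is not given, because the text on labelling describes egg cells and zygotes instead.

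Members were all genes whose symbol or synonym reads AOX1, with or without a letter from a to e, and whose probe set is paired with that gene alone. The rule found 1 gene, OsAOX1A (LOC4336874, also called AOX1 and AOX1a), with 1 probe set, among 17905 genes that a probe set reports alone and 57258 non-control probe sets. It is also the 1 gene with an AOX1 name in the RefSeq gene table used here, assembly ASM3414082v1. No gene carried the name UCP1 in the annotation used, so the uncoupling protein was not analysed here. Further alternative oxidase genes could not be identified by name. The probe set has the plain suffix that Affymetrix gives to probe sets designed against a single transcript, and no second probe set of the gene was available to compare it with. In RNA from isolated cells, fewer transcripts per cell and a smaller share of the cells carrying them cannot be told apart.

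OsAOX1A gave a higher mean signal in antipodals than in synergids, with wide spread inside both cell types. Its signal was 1348, 297 and 325 on synergid arrays 1, 2 and 3 and 3344, 709 and 1613 on antipodal arrays 1, 2 and 3. The lowest values of the 6 were thus those of synergid arrays 2 and 3 and the highest that of antipodal array 1, but the groups overlapped, since synergid array 1 lay above antipodal array 2. Synergids averaged 657 ± 599 and antipodals 1888 ± 1339 (SD, n = 3 each), so the difference between the means was smaller than the SD of the antipodal arrays.

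On the scale used for the fit, log2(signal + 16), the synergid arrays had a mean of 9.04 ± 1.19 and the antipodal arrays 10.63 ± 1.11 (SD, n = 3 each). The log2 fold change, synergid minus antipodal, was -1.59 (SE 0.62), which is 3.01-fold higher in antipodals. This contrast was known when the gene was chosen, so these values describe it and no p-value is given. OsAOX1A was not among the 110 of 34355 tested probe sets that limma called at an adjusted p under 0.05 (0.32%, made up of 0.256% higher and 0.064% lower in synergids). Of the tested probe sets, 3.71% had a lower log2 fold change than OsAOX1A, and the median over all of them was -0.08.

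**Figure D1:**
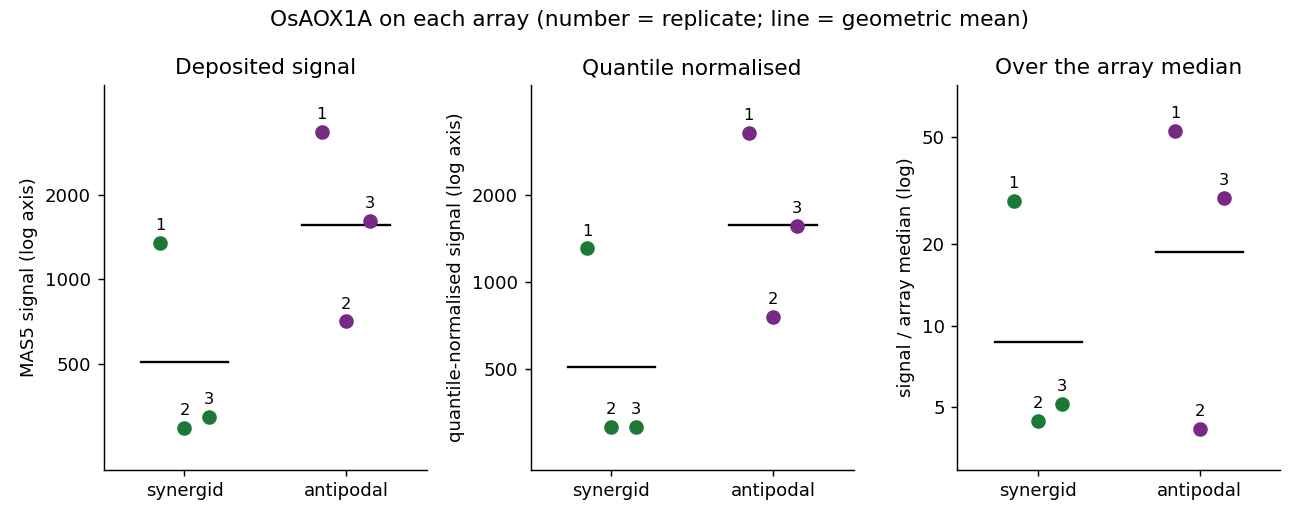
OsAOX1A on each of the 6 arrays (points, numbered by replicate, on log axes) as deposited, after quantile normalisation and divided by the median signal of the array, with a line at the geometric mean of each cell type (n = 3). Array 1 was the highest of its cell type on every scale, and antipodal array 2 dropped from 709 on the deposited scale to 4.16 times the array median, below all synergid arrays.

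The spread of OsAOX1A within a cell type was larger than that of most probe sets. The highest array was 4.53 times the lowest in synergids and 4.72 times the lowest in antipodals. The pooled SD within cell types was 1.15 on the log2 scale, against a median of 0.716 over all tested probe sets, and 80.3% of them had a smaller one. In both cell types array 1 was the highest, an order shared by 10.2% of tested probe sets as deposited and by 19.5% after median centring.

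Synergid array 1 and antipodal array 1 also differ from the other arrays in that the table writes their values with at most 9 digits, against 10. Arrays written alike were therefore compared, a choice made after the data were seen. On the 2 arrays of the shorter format, OsAOX1A was 2.48 times as high in antipodals as in synergids. On the 4 arrays of the longer format, the antipodal values of 709 and 1613 both lay above the synergid values of 297 and 325 (log2 fold change -1.73, SE 0.64). The only overlap as deposited was that of synergid array 1 with antipodal array 2. Leaving out synergid array 1 therefore had to part the groups, and the parting is no support. Divided by the array median, antipodal array 2 stood at 4.16, below synergid arrays 2 and 3 at 4.43 and 5.13. With the format as a block the log2 fold change was -1.59 with an SE of 0.42. The part of the format in the spread was not tested beyond these values.

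Arrays of the same replicate number gave the same direction. Antipodal array 1 had 2.48 times the signal of synergid array 1, antipodal array 2 had 2.38 times that of synergid array 2, and antipodal array 3 had 4.96 times that of synergid array 3. All 3 ratios point to antipodals, a pattern found in 18.1% of tested probe sets. The labels do not say that a number marks a shared plant or day, so these ratios set arrays side by side and are not pairs.

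Antipodal array 2 stood apart from the rest. Its median signal over non-control probe sets was 170.3, against 46.5 to 67.1 on the other 5 arrays, and its hybridisation controls were the brightest, with a geometric mean of 59283 against 6131 to 12372. Divided by the median signal of its array, OsAOX1A stood at 28.99, 4.43 and 5.13 on synergid arrays 1, 2 and 3, and at 52.6, 4.16 and 29.7 on antipodal arrays 1, 2 and 3. On that scale antipodal array 2 was the lowest of all 6, and its ratio to synergid array 2 was 0.939. The ratios for arrays 1 and 3 were 1.81 and 5.78. After median centring of log2(signal + 16), synergid array 2 was the lowest at 8.36 and antipodal array 2 next at 8.40. The order of these 2 arrays thus depends on the 16 added. Antipodals were then higher for all 3 numbers, a pattern found in 8.23% of tested probe sets on that scale.

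Antipodals had the higher value of OsAOX1A in all settings run. Over 15 other settings the log2 fold change ran from -2.28 to -1.05, that is from 4.84-fold to 2.06-fold higher in antipodals. Dropping the filter or the intensity trend, or adding a block, cannot move this value and alters only its SE. The smallest difference came from leaving out antipodal array 1, and the largest from leaving out synergid array 1, which raised the fold from 3.01 to 4.84. Without antipodal array 2 the log2 fold change was -2.15 (SE 0.63), and with each array centred on its median it was -1.14 (SE 0.91), with quantile normalisation -1.598 (SE 0.64). Quantile normalisation and median centring moved the median of all tested probe sets up by 0.125 and 0.446. Relative to that median, OsAOX1A lay at -1.51 as reported and -1.64 after quantile normalisation; median centring cannot alter this value, since it shifts all probe sets of an array alike.

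**Figure D2:**
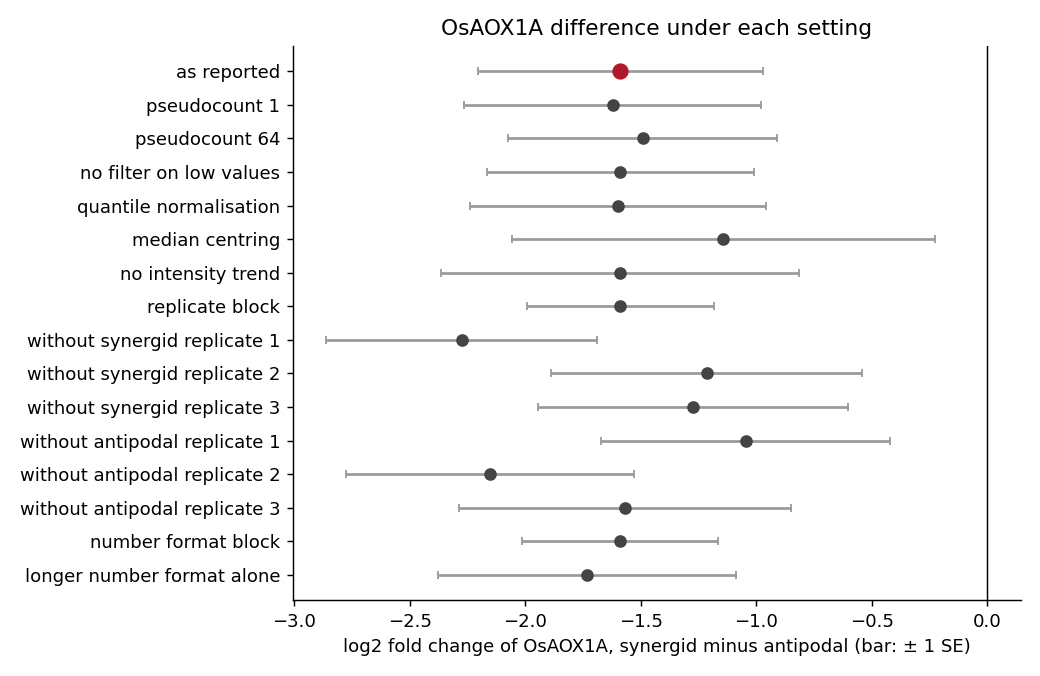
Log2 fold change of OsAOX1A, synergid minus antipodal, as reported (red) and under 15 other settings (grey); bars are 1 SE on either side. All points lie below 0, between -2.28 without synergid array 1 and -1.05 without antipodal array 1. Settings without a filter or trend, and those with a block, keep the reported value by design.

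The genes beside OsAOX1A in the RefSeq order were also read, picked by position and outside the naming rule. They carry no AOX1 name, and whether any of them encodes a further alternative oxidase was not checked. None of the 4 was called, where 0.32% of all tested probe sets were. The cell types overlapped for each, and only 13.4% of all tested probe sets had no overlap. Neither count sets these genes apart. Signals of the gene before it, LOC4336873, were 554, 567 and 535 in synergids and 266, 592 and 659 in antipodals (log2 fold change 0.22, SE 0.48). Those of the gene after it, LOC4336875, were 210, 29.8 and 39.6 in synergids and 1075, 33.4 and 11.6 in antipodals (-0.46, SE 1.17), with array 1 the highest of each cell type, as for OsAOX1A, but with the other 4 arrays between 11.6 and 39.6, close to or below 36.7, the mean signal under which probe sets were left untested. Further out, LOC4336872 and LOC4336876 had log2 fold changes of -0.27 (SE 0.68) and -0.29 (SE 0.43).

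The other genes of respiration were taken from lists of gene names. Of 8 lists, 6 matched at least 1 tested gene, and the lists of alternative NAD(P)H dehydrogenases, which feed the same ubiquinone pool, and of the plastid terminal oxidase, a relative of alternative oxidase, matched none here. The 6 lists held 35 tested genes, each read from its brightest probe set. None of the 35 was called by limma in either direction, where 0.32% of all tested probe sets were, and 3 of the 35 had an unadjusted p under 0.05, a p that 8.3% of all tested probe sets reached. Their log2 fold changes ran from -0.98 to 1.02 with a median of 0.02, so the value of OsAOX1A, -1.59, lay below all 35. OsAOX1A was chosen with its contrast known, so its place below them is a description. A difference between OsAOX1A and these genes was not tested.

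Complex II, the succinate dehydrogenase that passes electrons from the citric acid cycle to ubiquinone, was covered by 8 genes. Of these 8 tested subunit genes, 7 had a log2 fold change below 0 and 1 above (median -0.24), beside 54.7% of all tested probe sets below 0, and none was called. The signs rest on the scaling: 7 of 8 were below 0 after quantile normalisation and 3 of 8 after median centring. Median centring also moved the median of all tested probe sets to 0.37. Below the median of all lay 6 of 8 as reported, 7 after quantile normalisation and 6 after median centring. The cell types did not overlap for 3 of the 8, against 13.4% of all tested probe sets. The brightest, SDH6, averaged 11309 ± 2084 in synergids against 16197 ± 706 (SD, n = 3 each; log2 fold change -0.53, limma adjusted p = 0.666). SDH7, named after its values were seen for its unadjusted p, had 1964 ± 351 and 3411 ± 792 (-0.78, limma adjusted p = 0.571).

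In the cytochrome pathway 2 genes were tested. COX5c, a subunit of cytochrome c oxidase, averaged 11125 ± 855 in synergids against 8613 ± 5388 (SD, n = 3 each; log2 fold change 0.54, limma adjusted p = 0.75). The other, cob, the mitochondrial gene of cytochrome b, had a log2 fold change of -0.60. The antipodal SD of COX5c exceeded the difference between its means, and neither gene was called.

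For the entry of pyruvate, the 4 tested genes encode the E1 subunits of pyruvate dehydrogenase, and their log2 fold changes lay between -0.28 and 0.36. The brightest, PDHE1-A at LOC4330673, had 7683 ± 2170 in synergids and 9011 ± 3212 in antipodals (-0.20, limma adjusted p = 0.915). Among carriers, ANT had 28375 ± 2861 and 28895 ± 8408 (0.02, limma adjusted p = 0.994); its symbol is used for the adenine nucleotide translocator and for an ovule transcription factor, and the tables do not tell which is meant. The other gene matched among carriers, OsPHT3, had -0.69.

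Fermentation and haemoglobin genes, which serve when oxygen is short, split 4 above 0 to 2 below. PDC2, a pyruvate decarboxylase, was the brightest, at 42780 ± 3304 in synergids against 40073 ± 10518 (log2 fold change 0.13, limma adjusted p = 0.936). Its dimmer probe set had 2.04, so the probe sets of this gene disagree in size. Adh2, an alcohol dehydrogenase, had the lowest value of the list, -0.98, and the haemoglobin genes OsNSHB1 and OsNSHB2 had 0.48 and -0.56.

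Among the genes that remove superoxide and hydrogen peroxide, 10 of 13 had a log2 fold change above 0 (median 0.32), and none was called. Of all tested probe sets, 54.7% had a log2 fold change below 0. That count of 10 was 9 after quantile normalisation and 11 after median centring, which moved the median of all tested probe sets to 0.37. Below the median of all lay 3 of the 13 as reported, 4 after quantile normalisation and 3 after median centring. The ascorbate peroxidases OsAPx02 and OsAPx05, which reduce hydrogen peroxide with ascorbate, had an unadjusted p under 0.05 and opposite signs. OsAPx02 had 12254 ± 1863 in synergids and 23570 ± 1706 in antipodals (-0.95, limma adjusted p = 0.321), and its 4 probe sets ran from -1.04 to 0.53. OsAPx05, named after its values were seen, had 2367 ± 838 and 1134 ± 314 (1.02, limma adjusted p = 0.498).

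**Figure D3:**
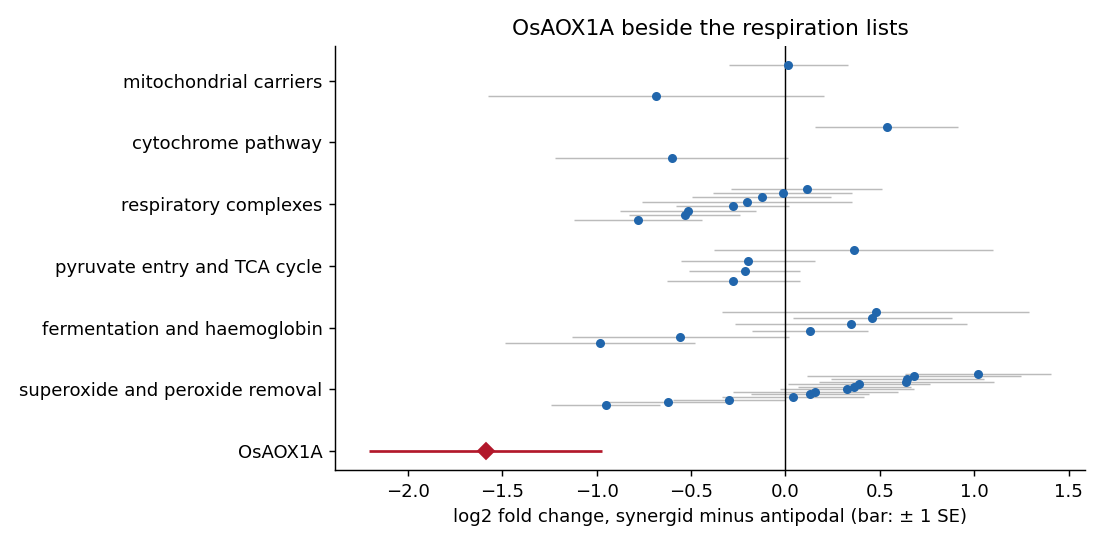
Log2 fold change, synergid minus antipodal, of OsAOX1A (red) and of the 35 tested genes of 6 respiration lists (blue, 1 point per gene); bars are 1 SE on either side. OsAOX1A at -1.59, chosen with this contrast known, lies below every list member, whose values run from -0.98 to 1.02.

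Over the 6 arrays OsAOX1A was also set against each list member by Pearson's r of the log2 values, as a description in which all genes share the arrays and their scaling. For the 8 complex II genes r ran from 0.193 to 0.827 with a median of 0.616. For the 13 genes of superoxide and peroxide removal it ran from -0.945 for sodCp, a superoxide dismutase, to 0.768 for OsAPx04, with a median of -0.148. These were the lists with the highest and the lowest median. The median was 0.24 for mitochondrial carriers, 0.1 for the cytochrome pathway, 0.135 for pyruvate entry and 0.033 for fermentation and haemoglobin. Over all 35 list genes it was 0.137. Over 2196 genes with an informative name and a tested probe set the median r was -0.07. The r of the list members was not recomputed after median centring.

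The named genes most like OsAOX1A over the arrays were 5 with r between 0.969 and 0.986, from the 45 of 2196 with r over 0.9. They were OsWNK5, a WNK-family kinase (r = 0.986), OsUGE-3, a UDP-glucose epimerase (0.986), the MADS-box gene OsMADS22 (0.974), the potassium channel gene OsKCO1 (0.973) and OsCDPK21, a calcium-dependent protein kinase (0.969). Like OsAOX1A, each had its highest signal on antipodal array 1 and array 1 as the highest of the synergids. Choosing them by this likeness to OsAOX1A fixes the direction of their differences.

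The size of the difference between cell types varied among these 5 genes. OsUGE-3 came nearest to OsAOX1A in size, averaging 4778 ± 4807 in synergids against 13434 ± 12488 (SD, n = 3 each; log2 fold change -1.46, SE 0.68). OsCDPK21 had 2271 ± 1664 and 7216 ± 3846 (-1.76, SE 0.47), and its cell types did not overlap. OsKCO1 had the smallest difference of the 5, at 1716 ± 518 and 2596 ± 616 (-0.61, SE 0.36), and after median centring its r fell to 0.949, the rank of 35 among the 2196. The other 4 ranked between 3 and 8 on that scale.

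**Figure D4:**
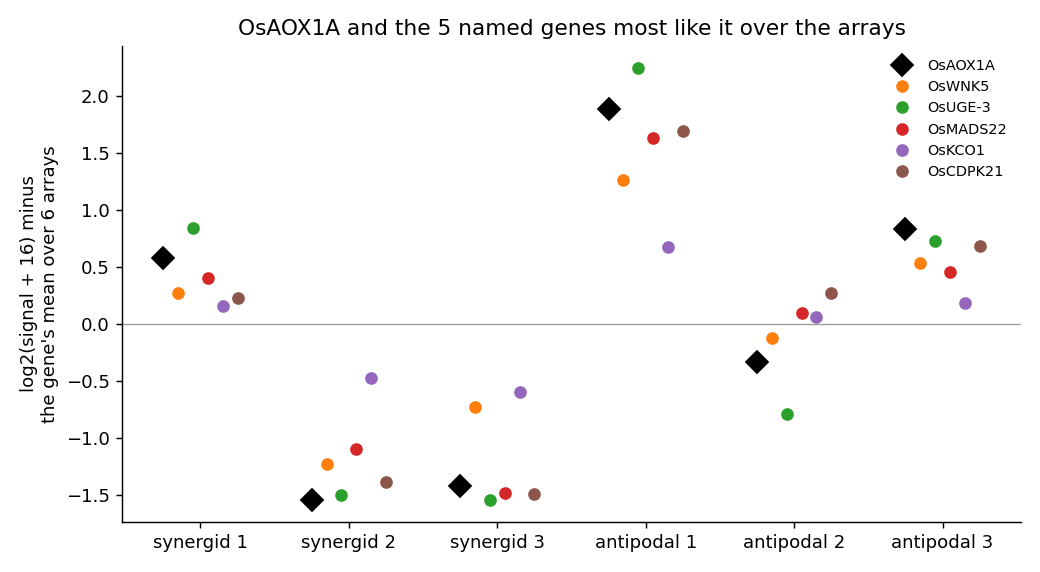
Log2(signal + 16) of OsAOX1A (black diamonds) and of the 5 named genes most like it (circles), each minus the gene's own mean over the 6 arrays, on every array. Antipodal array 1 is the highest for all 6 genes, and synergid arrays 2 and 3 are the lowest pair of points for all 6.

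Markers of the cell types could be checked only in part. No gene with a synergid, egg cell or pollen marker name from the list used had a probe set here, and no certain antipodal marker was at hand, so the labels were not checked by their own markers. The 3 ovule sporophyte genes were OsMADS13, OsMADS21 and OsMADS29. Their summed signal was 5430 to 10500 on the synergid arrays and 2120 to 3880 on the antipodal arrays, higher in the cell type with the lower OsAOX1A mean. For 6 endosperm storage protein genes the sums were 263 to 582 and 671 to 921, higher in the cell type with the higher OsAOX1A mean. Of these 6, 5 lay below the filter, so the parting of the sums rests partly on signal too low to test. The 1 tested, GLUA-2, overlapped, with synergid array 1 at 486 above antipodal array 2 at 437. On antipodal array 2, GLUB-4 and prolamin, both below the filter, read 210 and 212. GLUA-3, also below it, went the other way, with means of 21.8 in synergids and 7.92 in antipodals. For 3 leaf genes the sums were 3920 to 8920 and 5740 to 11500, which overlap. None of the 6 tested among these 12 genes was called, where 0.32% of all tested probe sets were. OsMADS13, OsMADS21 and OsMADS29 had log2 fold changes of 1.717, 1.819 and 1.255. The cell types did not overlap for any of these 3, against 13.4% of all tested probe sets without overlap. The part of the 12 genes in the difference of OsAOX1A was not tested.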

How the data were processed

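The authors deposited 1 table with a linear intensity for each probe set on 6 arrays, made with GCOS 2.0 and MAS5 per the submitters' processing notes; MAS5 summarises each array by itself. The trimmed mean (2% off each end) was 500.1 on every array. Of 57381 probe sets, 123 were controls. Signals were taken as log2(signal + 16), which understates folds of dim probe sets, and probe sets in the lowest 40% by mean (below a signal of 36.7) were left out, leaving 34355. The test was limma 3.58.1 under R 4.3.3 (intensity trend, no covariate), with Benjamini-Hochberg adjustment over all tested probe sets. The code of the fit was also run on simulated data. Those had independent noise of the same spread for every probe set and no differences between arrays. They therefore cannot show how the fit behaves on these arrays. No scan date was used, and 3 arrays per group limit the precision.

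Genes were named through gene numbers in RefSeq, assembly ASM3414082v1: 22436 probe sets had 1 gene and 95 several. The probe set with the highest mean represents a gene. From the lists, 8 genes whose symbol belongs to another family as well were left out, after the tables were seen. ANT was kept although its symbol is shared too. No sequence of the gene was used here. The naming rule took all probe sets of the members, of each list the called genes or else the brightest, and the 5 named genes with the highest Pearson r to OsAOX1A. The members, lists and tests were chosen with earlier results of these data known. Alternatives were other pseudocounts, no filter, other normalisations, no trend, the replicate number as a block, each array left out, and the number format.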

Additional observations from a re-analysis of the deposited data

How the results depend on the processing

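The log2 fold change of OsAOX1A stayed below 0 in all 15 other settings, but its fold ran from 2.06 to 4.84. Settings without a filter or trend, and those with a block, could not move it and altered only its SE. Leaving out each array in turn gave -2.28 to -1.05. No list gene was called in any of them. The total of 110 calls, 88 higher and 22 lower, depended on the model: 31 without an intensity trend, 284 (137 higher, 147 lower) with the number format as a block and 458 (239 and 219) on the 4 arrays of the longer format, both chosen after the data were seen. Leaving out each array in turn gave 42 calls (41 higher and 1 lower, without synergid array 2) to 317 (96 and 221, without synergid array 1), and 61 (59 and 2) without synergid array 3. Quantile normalisation gave 73 higher and 3 lower, and median centring 75 and 1. With the replicate number as a block the total was 293 (149 and 144), and OsAOX1A had -1.59 with an SE of 0.40. Deviations from the group means correlated at 0.218, 0.116 and 0.020 for numbers 1, 2 and 3. The 6 pairs of different number gave -0.153 to 0.022, and 5 of 6 arrays correlated best with their own number. Deviations from a mean of 3 arrays cancel out, so a positive value for a pair pushes the others down. That contrast is thus partly built in, and both arrays numbered 1 also share the shorter number format. It is at most a hint from the data, not a pairing given by the labels, and the arrays were treated as unpaired. UCP1 had no value to vary, and OsAOX1A no second probe set. The low signal of LOC4336875 and the 3 arrays per cell type limit what can be read.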
